A study of Mus musculus with 3 samples.

Results

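The transcripts described here are 10 genes of adipocyte differentiation: the transcription factors Cebpb, Cebpd, Pparg and Cebpa, the fatty acid uptake and storage genes Fabp4, Lpl, Cd36 and Plin2, and the adipokines Adipoq and Rarres2. They were chosen by name, as every non-control probe that carries one of these gene names on the arrays, by a rule that used no measured value, though earlier results of these data were known. That gave 17 probes of 10 genes, out of 41167 probes of 27720 genes. Plin2 stands under its older name, Adfp, in the array files.

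The cells were C3H10T1/2, a mouse mesenchymal line of fibroblast-like morphology that can be turned into fat, bone or cartilage cells and is also used in transformation assays. The 3 groups were untreated cells and cells given hexavalent chromium, Cr(VI), at 0.01 uM or 1 uM, each with 3 flasks seeded at 2000 cells and 1 array. Chromium was added 24 h after seeding and washed off after 48 h, and RNA was taken after 15 days of culture, so the arrays show cells long after the metal had been removed. The sources used here do not state whether the flasks of a group were pooled or that any agent to induce fat cells was given.

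Fat cell formation is a relay of transcription factors. C/EBP beta and C/EBP delta appear first after a stimulus and switch on PPAR gamma and C/EBP alpha, which then maintain each other and turn on the genes of lipid uptake, lipid storage and hormone secretion. Preadipocytes and uninduced mesenchymal cells can carry the early factors and some of the lipid genes without being fat cells.

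With 1 array per group there was no replicate, so no test between doses was possible and each value is a difference between single arrays that shared 1 slide. Levels are log2 processed signal minus the 75th percentile of that array. Standard errors (SE) come from the scanner software's own error model, which covers the measurement of a spot but not the spread between cultures, and had a median of 0.21 for a log2 difference. Between 36.4% (0.01 uM) and 41.8% (untreated) of the probes of an array were well above background, and replicate spots of a probe had a median SD of 0.057 to 0.059. A gene was counted when it was at least 2-fold apart, and it was compared where the scanner called its brightest probe well above background on either array. Where a probe was not well above background on the dimmer array, the fold is given as "at least N-fold", the brighter signal over the higher of the dim signal and the lowest detected signal of that array. Such a bound leaves out the SE, and probes called not well above background can lie above that lowest signal. A bulk array does not separate fewer cells of a type from less RNA per cell.

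At 1 uM, 3 of the 8 members compared were at least 2-fold lower than in untreated cells and 0 were higher. They were Rarres2, Fabp4 and Cebpa. Over all 12449 genes compared, 10.4% were at least 2-fold apart, 4.86% lower and 5.57% higher. The members' median log2 difference was -0.35 as read from the scanner, dim and saturated spots included, against -0.04 over all genes. With bounds in place of such readings it was -0.38, against -0.03. At 0.01 uM, 0 of 8 members were 2-fold apart in either direction, where 0.428% of 11914 genes were, 0.168% lower and 0.26% higher. Adipoq and Cd36 were not well above background on any array and were not compared.

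The probes that carry the lower signals at 1 uM are shown with the sequence that was printed on the array. For the Fabp4 probes at bases 75 and 391 and the Rarres2 probe at base 1998 all 60 bases are given, and for the other probes the first 30, each in lower case and 5′ to 3′ along the transcript. Bases are counted from the start of the transcript each probe was designed on, and coordinates are on build mm9, as the array files give them. The files give no exon or UTR annotation.
Fabp4 base 75: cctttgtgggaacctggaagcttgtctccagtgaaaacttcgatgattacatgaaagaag
Fabp4 base 391: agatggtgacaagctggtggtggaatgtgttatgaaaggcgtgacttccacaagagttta
Fabp4 base 472, first 30: aagaggcctggatggaaatttgcatcaaac
Rarres2 base 1998: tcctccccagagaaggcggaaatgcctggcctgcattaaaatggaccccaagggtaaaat
Rarres2 base 570, first 30: ggccctgagaaccaaataagccctagacag
Cebpa base 2205, first 30: ttttgttttggttttgctctgattcttgcc
The 3 Fabp4 probes share no run longer than 7 bases with each other, and the Rarres2 probes no run longer than 5, so each probe of a gene is a separate reading of it within the same RNA.

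**Figure D1:**
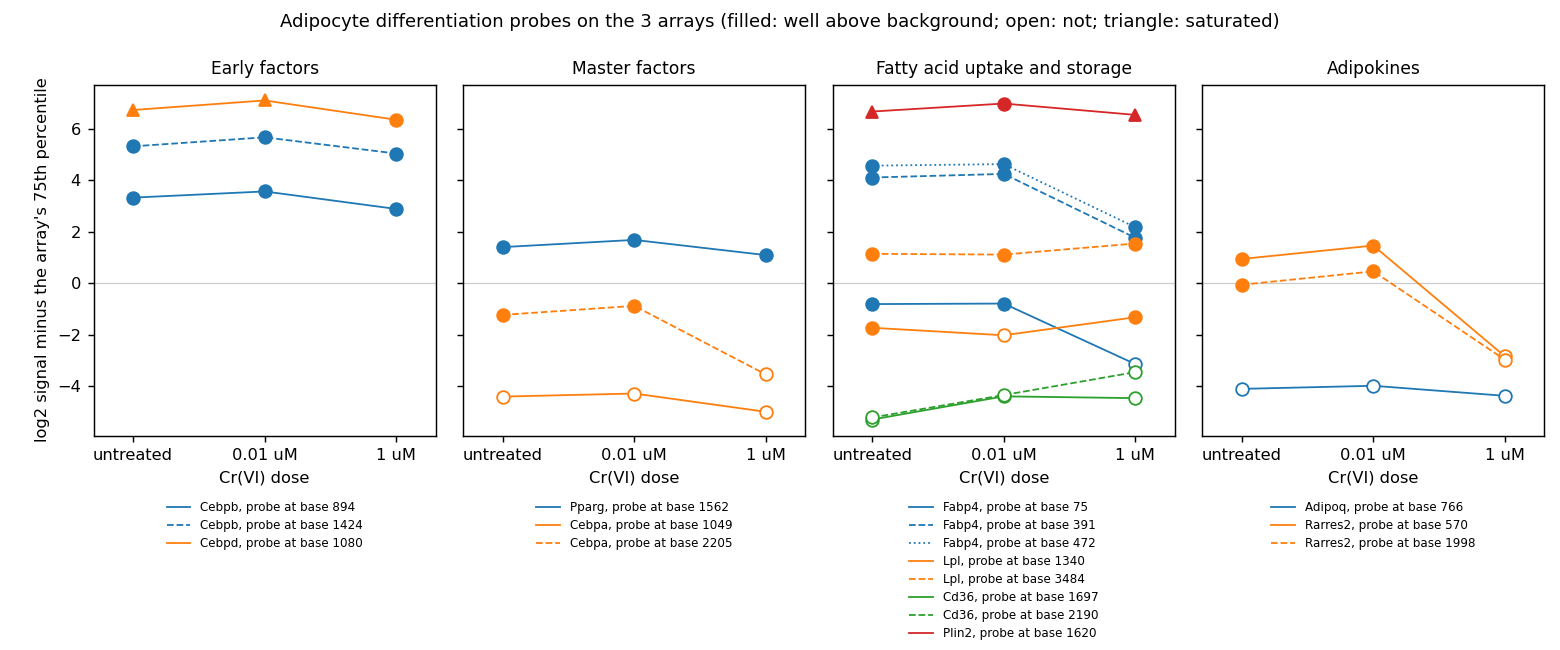
Level of each of the 17 probes on the untreated, 0.01 uM and 1 uM arrays, as log2 processed signal minus the array's 75th percentile, with open points for probes not well above background and a separate mark for saturated spots. The Fabp4, Rarres2 and Cebpa base 2205 probes differ by at most 0.53 between the first 2 arrays and are lower at 1 uM, where Rarres2 goes from 0.94 and 1.46 to -2.84.

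Cebpb encodes C/EBP beta, one of the factors that start the relay. Its probe at base 1424 (chr2:167515847-167515905) was at 5.31 untreated, 5.66 at 0.01 uM and 5.03 at 1 uM. Its probe at base 894 (chr2:167515309-167515368) was at 3.32, 3.56 and 2.88 in the same order. After centring, both probes were highest at 0.01 uM and lowest at 1 uM, though their signals before centring fell with dose. The differences from untreated at 1 uM were -0.28 and -0.45, and those at 0.01 uM were 0.35 and 0.24, none of them 2-fold. With scaling on 5 spike-in control probes, described below, the difference at 1 uM took the other sign, at 0.41.

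Cebpd encodes C/EBP delta, the partner of C/EBP beta in the early step. Its single probe (chr16:15888459-15888518) was among the brightest on the arrays and was saturated on 2 of them, with readings of 6.72 untreated and 7.09 at 0.01 uM. At 1 uM it was not saturated and stood at 6.34. Because the brighter readings are capped, the values give only bounds: at least 1.30-fold lower at 1 uM than untreated and at least 1.68-fold lower than at 0.01 uM. No fold can be given between 0.01 uM and untreated. With spike-in scaling the bound at 1 uM against untreated was lost. With quantile normalization the log2 bound against 0.01 uM was -0.22, against -0.75 as reported.

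Pparg encodes PPAR gamma, the nuclear receptor on which fat cell formation depends. Its probe (chr6:115440213-115440272) was printed 10 times per array. The spots lay between 1.32 and 1.52 untreated, with a median of 1.40, and between 1.63 and 1.77 at 0.01 uM, with a median of 1.67. At 1 uM, where 8 spots were usable, they lay between 1.06 and 1.12, with a median of 1.09. After centring, the spots of the 3 arrays did not overlap, and their SD was 0.059, 0.041 and 0.020. Before centring the mean signals were 1845, 1650 and 1601, so the gap between the 0.01 uM and 1 uM spots depends on the centring. The probe mean was -0.31 (SE 0.07) at 1 uM and 0.27 (SE 0.07) at 0.01 uM relative to untreated, which is 1.24-fold lower and 1.21-fold higher. These spots repeat 1 labelled RNA per dose, so their tightness says nothing of the spread between cultures. The difference at 1 uM changed sign to 0.37 with spike-in scaling. The probe is listed for both Pparg transcript variants and does not separate their start sites.

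Cebpa encodes C/EBP alpha, which sustains the fat cell programme together with PPAR gamma. Its probe at base 2205 (chr7:35906517-35906576) was at -1.23 untreated and -0.88 at 0.01 uM. At 1 uM it was at -3.54 and not well above background. The measured difference at 1 uM was -2.31, and the bound was at least 2.98-fold lower than untreated. Against 0.01 uM the measured difference was -2.67, or at least 3.80-fold lower. The other Cebpa probe, at base 1049 (chr7:35905361-35905420), was not well above background on any array, with -4.40, -4.28 and -4.99, and gave no fold. The bound against untreated was past 2-fold in 7 of 10 alternative settings. It was -0.94 with normexp background correction and -0.89 with spike-in scaling, and no fold was left when the probes of the gene were averaged.

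**Figure D2:**
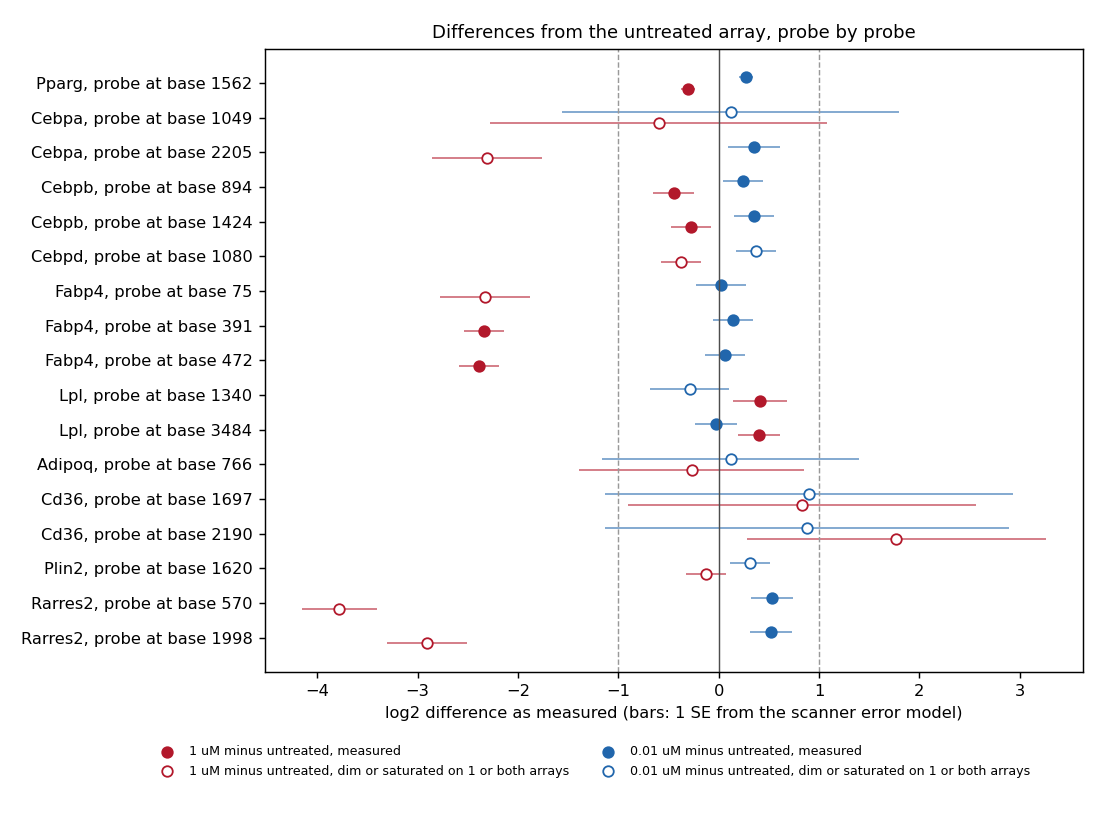
Measured log2 difference of each probe from the untreated array at 1 uM and 0.01 uM, with bars of 1 SE from the scanner error model and dashed lines at 2-fold. Filled points were well above background and not saturated on both arrays. All 3 Fabp4 probes lie between -2.39 and -2.33 at 1 uM and between 0.02 and 0.14 at 0.01 uM.

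Fabp4 encodes the fatty acid binding protein that carries lipid inside fat cells, and it is a classic target of PPAR gamma. The brightest probe, at base 472 (chr3:10204452-10204511), was at 4.56 untreated, 4.62 at 0.01 uM and 2.17 at 1 uM. The probe at base 391 was at 4.10, 4.24 and 1.76. Its coordinates (chr3:10204533-10205262) span 730 bases, 670 more than the 60 of the probe, as for a probe that crosses an intron. The probe at base 75 (chr3:10208442-10208501) was at -0.81, -0.79 and -3.14, the last not well above background.

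On all 3 Fabp4 probes the untreated and 0.01 uM arrays lay close together and the 1 uM array was lower. At base 472 the difference at 1 uM was -2.39 (SE 0.20), a 5.26-fold lower signal than untreated. At base 391 it was -2.34 (SE 0.20), or 5.06-fold. At base 75 the measured difference was -2.33 and the bound at least 3.99-fold. Against 0.01 uM the brighter probes were 5.48-fold and 5.58-fold lower. Of the 12449 genes compared between 1 uM and untreated, 67 had a lower value than Fabp4. At 0.01 uM the 3 probes differed from untreated by 0.06, 0.14 and 0.02, each within its SE.

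Lpl encodes lipoprotein lipase, which frees fatty acids from circulating lipoproteins for uptake. Its probe at base 3484 (chr8:71430267-71430326) was at 1.14 untreated, 1.11 at 0.01 uM and 1.54 at 1 uM. The probe at base 1340 (chr8:71425050-71425109) was at -1.73, -2.02 and -1.32, with the 0.01 uM value not well above background. Lpl was the only compared member with a higher signal at 1 uM than untreated, and both probes gave nearly the same difference, 0.40 (SE 0.21) and 0.41 (SE 0.27). That is 1.32-fold and short of the 2-fold threshold, which it passed only with spike-in scaling, at 1.08.

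Cd36 encodes a fatty acid translocase of the cell surface. Its probes at bases 1697 and 2190 (chr5:17289110-17291542 and chr5:17288600-17288659) were not well above background on any array. The first was at -5.29 untreated, -4.39 at 0.01 uM and -4.46 at 1 uM, and the second at -5.21, -4.34 and -3.45. Differences between such dim spots are not read as differences in Cd36.

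Plin2 encodes perilipin 2, a coat protein of lipid droplets found in most cell types. Its probe (chr4:86302676-86302735) was at 6.66 untreated, 6.97 at 0.01 uM and 6.53 at 1 uM. The first and last of these were saturated, so no fold could be given. Plin2 gave a bright signal on all 3 arrays, but a change in it could not be measured.

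Adipoq encodes adiponectin, a hormone made by mature fat cells. Its probe (chr16:23157576-23157635) was at -4.10 untreated, -3.98 at 0.01 uM and -4.37 at 1 uM, never well above background. It was 1 of 8 markers of mature adipocytes, with Plin1, Cidec, Lep, Retn, Cfd, Adrb3 and Slc2a4, and 0 of the 8 were well above background on any array. These 8 markers were thus not detected, while 8 of the 10 members were on the untreated and 0.01 uM arrays, and 6 at 1 uM. Of the 26 genes of a broader late fat cell list described below, 14, 13 and 13 were detected at 0, 0.01 and 1 uM.

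Rarres2 encodes chemerin, a secreted attractant of immune cells and an adipokine that is also made by preadipocytes. Its probe at base 570 (chr6:48519775-48519969) was at 0.94 untreated, 1.46 at 0.01 uM and -2.84 at 1 uM. Its probe at base 1998 (chr6:48520289-48520348), designed on another transcript record, was at -0.06, 0.46 and -2.97. On both probes the 0.01 uM array was highest and the 1 uM array was not well above background.

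The measured differences at 1 uM were -3.78 (SE 0.37) and -2.91 (SE 0.40), and the bounds were at least 13.4-fold and at least 6.69-fold lower than untreated. At its bound of -3.74, 10 of 12449 genes had a lower value than Rarres2. The bound rests on the lowest detected signal of the array and leaves out the SE of 0.37, so this place is approximate. Against 0.01 uM the bounds were at least 19.3-fold and at least 9.61-fold. At 0.01 uM both probes were 1.44-fold above untreated, with log2 differences of 0.53 and 0.52 (SE 0.21 each). That was short of 2-fold, although only 137 of 11914 genes had a higher value.

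**Figure D3:**
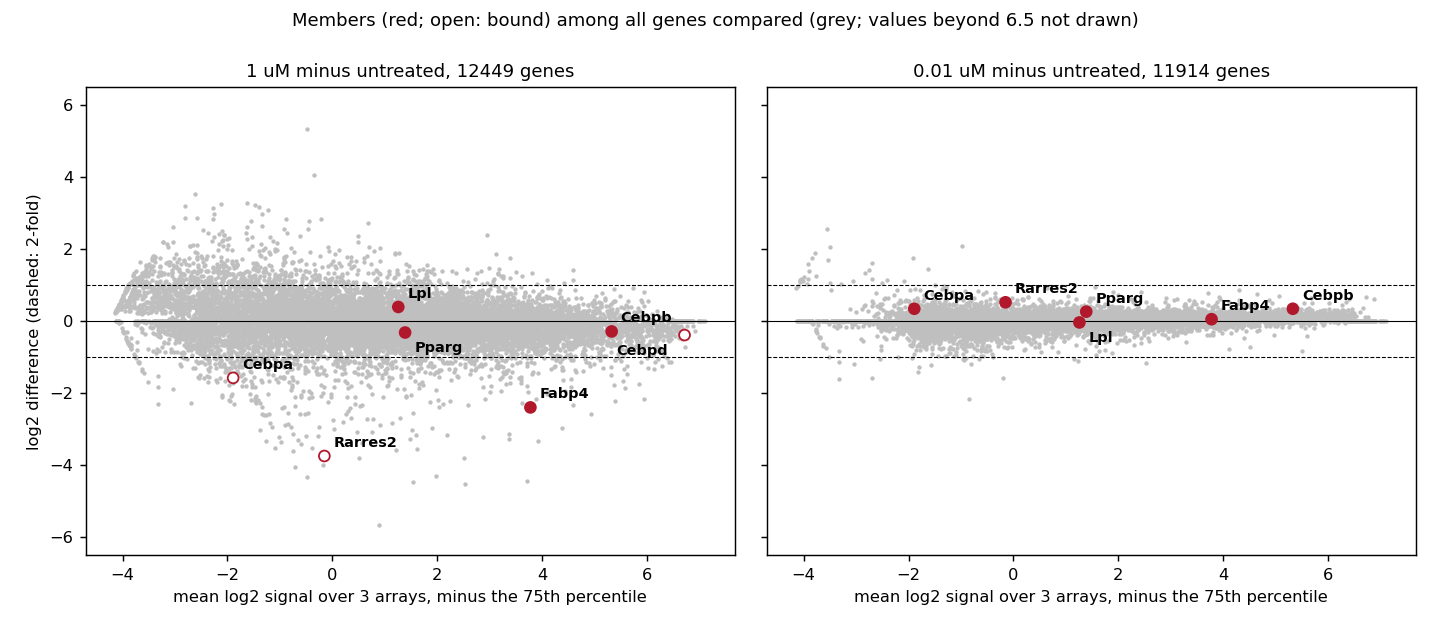
Log2 difference of each gene compared against its mean level over the 3 arrays, at 1 uM (12449 genes) and 0.01 uM (11914 genes), each minus untreated, with the members in red and open where the value is a bound. Rarres2, Fabp4 and Cebpa lie below the dashed 2-fold line at 1 uM, and no member lies past it at 0.01 uM.

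Set side by side over the doses after centring, Pparg, Cebpa, Cebpb and Rarres2 did not run in dose order. On their brightest probes they were highest at 0.01 uM and lowest at 1 uM. For Cebpa the difference of 0.35 at 0.01 uM had an SE of 0.26. Before centring, the signals at 0, 0.01 and 1 uM fell with dose for Pparg, Cebpb and Cebpa. They were 1845, 1650 and 1601 for Pparg, 27572, 26013 and 24565 for Cebpb, and 297, 280 and 64.5 for Cebpa. With spike-in scaling Pparg and Cebpb were lowest in untreated cells. Their differences were then 0.58 and 0.65 at 0.01 uM and 0.37 and 0.41 at 1 uM. For Fabp4 and Lpl the differences at 0.01 uM, 0.06 and -0.03, were within their SE, so no order was read. Saturation left Cebpd and Plin2 without a full order. Of the 10 probes well above background and unsaturated on both the 0.01 uM and the untreated arrays, 9 had a difference above 0. The range was -0.03 to 0.53. These probes belong to only 6 genes. Over all 11914 genes compared, 6804 had a value above 0 and 4036 below it. Fabp4 fell below 0 with quantile normalization (-0.03), loess (-0.05) and normexp (-0.02). The members' median at 0.01 uM was 0.33 as read and 0.31 without the saturated Cebpd and Plin2, against 0.05 over all genes, and it was 0.11 with quantile normalization. Of the 7 probes well above background and unsaturated on both the 1 uM and the untreated arrays, 5 had a difference below 0. The 2 Lpl probes were above it. These probes belong to 4 genes. Over all 12449 genes compared, 6374 had a value below 0 and 5828 above it. Between 1 uM and 0.01 uM, 3 of 8 members were at least 2-fold lower, again Rarres2, Fabp4 and Cebpa, and 0 were higher, where 11.7% of 12058 genes were 2-fold apart, 6.45% lower and 5.2% higher. At 1.5-fold, 6 of the 8 were lower, where 17.3% of all genes were. The members' median was -0.69 as read and -0.75 with bounds, against -0.06 and -0.07 over all genes. These 3 comparisons share arrays, so they are not independent of each other.

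The choice of scaling bears on the smaller differences. Scaling on the spike-in controls moved the median of all genes between 1 uM and untreated from -0.04 to 0.64, and the share of 2-fold genes that were higher from 53.4% to 94.7%. With normexp background correction that share was 39.2%. Under spike-in scaling the members' median was 0.34, below the 0.64 of all genes, with Fabp4 at -1.71 and Rarres2 at -3.06. Over the alternatives run, Fabp4 stayed between -2.39 and -1.71 and was at least 2-fold lower in 11 of 11. Rarres2 stayed between -3.86 and -2.55 and was at least 2-fold lower in 10 of 10.

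**Figure D4:**
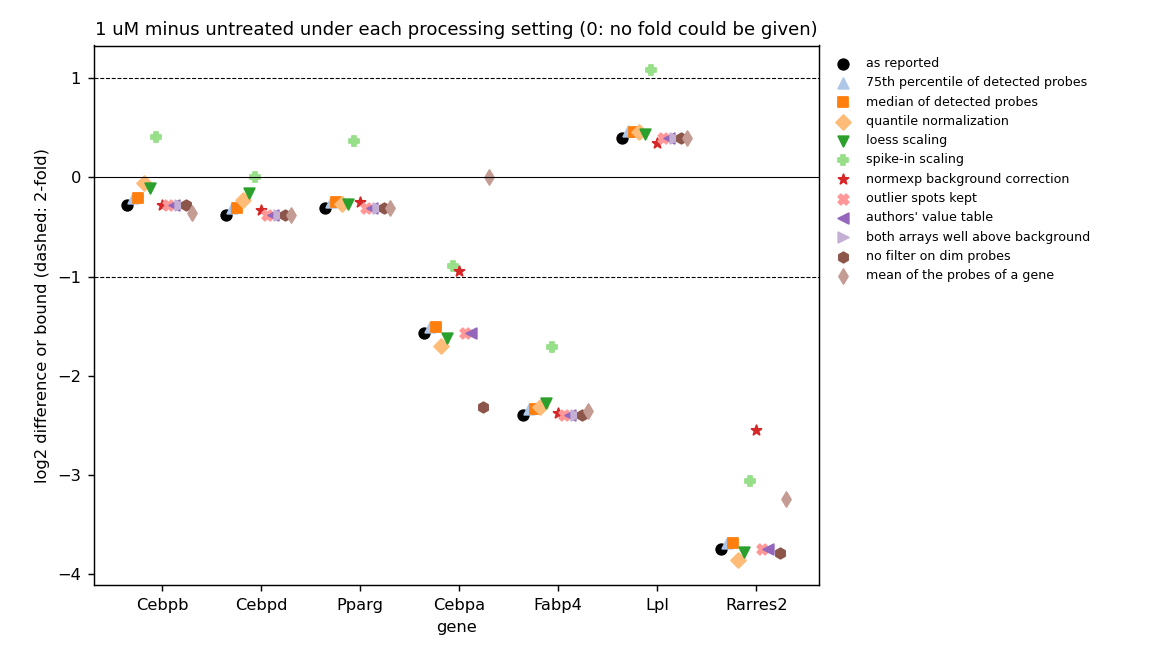
Log2 difference of the compared members between 1 uM and untreated under each alternative processing. Fabp4 and Rarres2 are below the 2-fold line under every alternative drawn, Cebpa is not with normexp (-0.94), spike-in scaling (-0.89) or averaged probes (no fold, drawn at 0), and Pparg (0.37) and Cebpb (0.41) change sign with spike-in scaling.

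Promoter windows of 250 bases before the start were at hand from RefSeq (build GRCm38.p6) for 6 of the 10 members, 8 windows in all. They were searched on both strands for the direct repeat recognised by PPAR-RXR, a C/EBP motif (TTGCNNAA) and a TATA box (TATAAA). The direct repeat was in 0 of the 8 and in 0.338% of 32851 windows of all genes. The C/EBP motif was in 1 of the 8, a Pparg window, and in 9.56% of all windows, and the TATA box was in 2 of the 8 and in 12.4% of all. The Pparg window with the C/EBP matches and the Cebpa window with its TATA match are printed below with the matches in capitals, for Pparg at -215 to -208 and, on the minus strand, -16 to -9, and for Cebpa at -30 to -25 from the start. The other TATA match, on the minus strand at -29 to -24, is in another Pparg window (chr6:115362099-115362348), which is not printed. A match of letters does not show that a factor binds there.
Pparg, chr6:115421816-115422065, plus strand: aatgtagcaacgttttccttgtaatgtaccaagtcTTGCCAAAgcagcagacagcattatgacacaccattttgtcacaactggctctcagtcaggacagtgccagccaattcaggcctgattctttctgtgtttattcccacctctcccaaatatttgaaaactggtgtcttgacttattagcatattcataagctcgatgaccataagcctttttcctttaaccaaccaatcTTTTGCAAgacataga
Cebpa, chr7:35119043-35119292, plus strand: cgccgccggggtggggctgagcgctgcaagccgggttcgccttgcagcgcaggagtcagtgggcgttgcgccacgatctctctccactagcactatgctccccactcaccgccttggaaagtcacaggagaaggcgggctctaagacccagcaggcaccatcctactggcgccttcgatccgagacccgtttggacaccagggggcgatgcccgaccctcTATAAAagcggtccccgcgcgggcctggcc
The Cebpa window has a GC content of 66.4% and the Pparg window 40.8%.

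Other regulators of the pathway were read from lists chosen with earlier results of these data known, so the shares below are descriptive only. Of 25 regulators that favour adipogenesis on the array, 20 were compared at 1 uM. Of these, 4 fell past the 2-fold line on the lower side and 1 on the higher side, together 25%. Of all genes compared, 4.86% were lower and 5.57% higher. The list's median was -0.45, against -0.04 over all genes. Bmp4, a growth factor that commits C3H10T1/2 cells to the fat lineage, was at 2.48 untreated, 2.90 at 0.01 uM and 0.25 at 1 uM, 4.70-fold lower than untreated. Ebf1, a factor upstream of Pparg and Cebpa, was at -0.70, -0.58 and -2.36, which is 3.16-fold lower at 1 uM. Its other probe was not well above background on any array and gave no fold, so this rests on 1 dim probe. Lpin1, a phosphatidate phosphatase needed for fat cell formation, was 2.29-fold lower on its brightest probe, with -0.72, -1.15 and -0.12 on 3 other probes. Egr2 was also lower, at -1.07, and Ebf2 was higher, at 1.19; both fell outside the rule for named genes and are given to complete the counts. With spike-in scaling the counts were 1 lower and 2 higher, where 1.41% and 25% of all genes were. The median was then 0.23, against 0.64 over all genes.

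Of 22 genes that hold adipogenesis back on the array, 18 were compared at 1 uM. Of these, 5 (27.8%) were at least 2-fold lower and 0 were higher, where 4.86% and 5.57% of all genes were. The list's median was -0.30, against -0.04 over all genes. The other 13 were within 2-fold, between -0.46 and 0.41. Id2, an inhibitor of helix-loop-helix factors, was at 2.84 untreated, 2.98 at 0.01 uM and -0.11 at 1 uM, 7.73-fold lower than untreated, and -2.83 on its other probe. Members of this list do not all act one way: Id2 is also described as promoting fat cell formation. Zfp521, a zinc finger antagonist of Ebf1, was at 1.87, 1.91 and -1.02, or 7.37-fold lower. Hes1, an effector of Notch signalling, was 6.44-fold lower. Klf2, which represses Pparg, was 5.90-fold lower on its brightest probe and -1.33 on another. Tcf7l2 was lower too, at -1.09, but another of its probes gave a bound of 1.47 in the other direction. With spike-in scaling this list's median was 0.38, against 0.64 over all genes, with 3 genes higher. On their brightest probes Id2, Zfp521, Hes1 and Klf2 stayed at least 2-fold lower with that scaling. Of all genes, 25% were then higher and 1.41% lower.

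Of 26 genes of the late fat cell programme on the array, 14 were compared and 1 (7.14%) was 2-fold apart, near the 10.4% of all genes. It was Plin4, a lipid droplet coat protein, at 3.62 untreated, 3.82 at 0.01 uM and 2.36 at 1 uM, 2.39-fold below untreated. The median was -0.27, and 0.42 with spike-in scaling, against -0.04 and 0.64 over all genes. Of 31 partners, relatives and receptors, 20 were compared, 1 was lower and 1 was higher, which is 10% and again near the share of all genes, with a median of -0.11, and 0.57 with spike-in scaling. The lower one was Angptl4, a secreted inhibitor of lipoprotein lipase and a PPAR target, at 1.94, 2.10 and 0.40, or 2.91-fold lower. The higher one was Slc27a3, an acyl-CoA synthetase of the fatty acid transporter family, at -3.51 untreated, where it was not well above background, and -1.52 at 1 uM, at least 2.75-fold higher. At 0.01 uM, 0 genes of any of these 4 lists were 2-fold from untreated, with medians of 0.05, 0.11, 0.10 and 0.11 in the order given, and 0.05 over all genes.

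**Figure D5:**
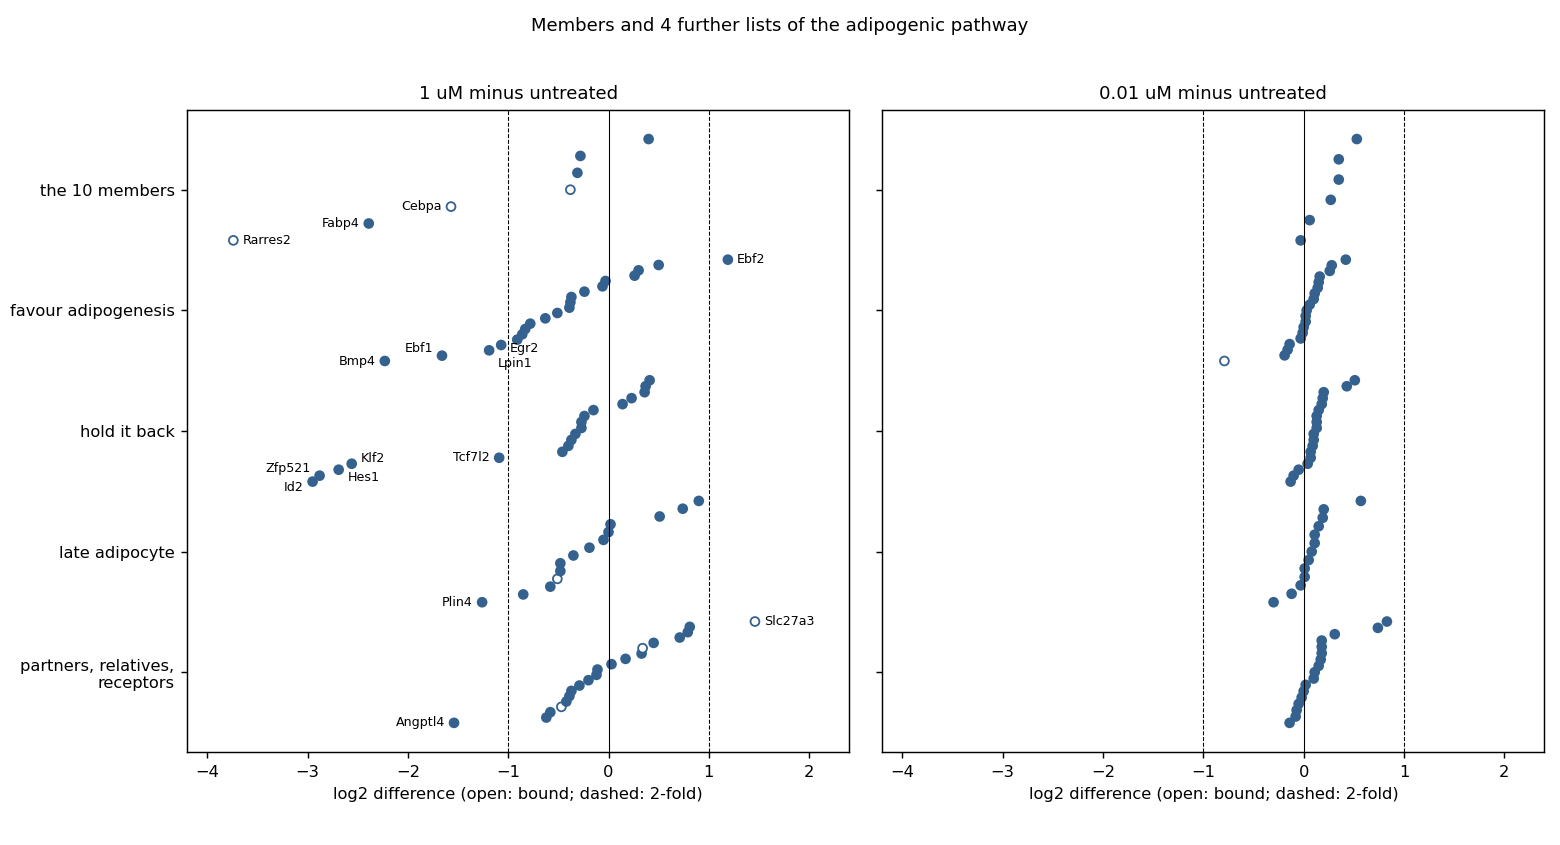
Log2 difference from untreated at 1 uM and 0.01 uM for each compared gene of the members and of the 4 further lists, 1 point per gene, open for bounds and dashed at 2-fold. At 1 uM regulators on both sides of the decision lie below -1, among them Bmp4, Ebf1, Id2, Zfp521, Hes1 and Klf2. At 0.01 uM no point is past 2-fold. With spike-in scaling the medians of the 4 further lists at 1 uM are above 0 but below the 0.64 of all genes.

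Markers of cell types were read on the same arrays. Of 12 markers of mesenchymal cells, 12, 12 and 11 were well above background at 0, 0.01 and 1 uM, with Thy1 not at 1 uM, and for the 8 that were not saturated on any array the summed linear level relative to the 75th percentile was 231, 270 and 167. Vim, Col3a1, Pdgfrb, Twist1 and Thy1 were at 6.47, 5.98, 5.04, 1.40 and 2.84 untreated. At 1 uM they were lower, at 6.10, 5.27, 4.19, 1.13 and -3.56. Pdgfra, Prrx1 and Ddr2 were at 1.78, 3.97 and 4.14 untreated and at 1.99, 4.11 and 4.14 at 1 uM. The lower sum at 1 uM thus did not extend to these last 3. Of 11 macrophage and blood markers, 2, 2 and 3 were detected, with a sum of 5.14, 5.05 and 5.11. Cd68 (2.08, 2.01 and 2.04) and Lyz2 (-1.07, -0.96 and -1.39) were detected on all 3 arrays, and Aif1 at 1 uM only (-2.29). Ptprc, Tyrobp, Laptm5, Csf1r, Adgre1, Itgam, Cd53 and Fcer1g were not detected. Of 9 endothelial markers, 1, 1 and 2 were detected, with a sum of 2.32, 2.59 and 2.12. Vwf was detected on all 3 arrays (1.03, 1.11 and 0.48). Cdh5 was detected at 1 uM only, at -1.10, with a dim -4.01 untreated. The part of these markers in the members' values was not tested.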

How the data were processed

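Per the file headers, the authors obtained spot intensity from 1-colour Cy3 scans in Agilent Feature Extraction 10.5.1.1, on probe coordinates of build mm9. The deposited value table holds log2 values. These differed from log2 processed signal by 1 constant per array (9.45, 9.01 and 9.56), within 0.01 for over 99.8% of probes, with column medians of -4.23, -3.96 and -4.03, so its scale, centring and direction are those used here. The flags for background, saturation and outliers are those deposited in the scanner files.

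Control and outlier spots were removed, log2 signals of repeated spots were averaged, and every array was centred on the 75th percentile of its probes. A gene is represented by its brightest probe. Names came from RefSeq accessions for 25263 probes, from symbols for 6233 and from synonyms for 1603, while 8075 have only the name in the file. The RefSeq table, of GRCm38.p6, served for names only. A gene saturated on either side of a comparison so that no bound exists counts as not apart, and list medians are of differences as read from the scanner over all genes compared, dim and saturated ones included. No p-value was computed, and the number of arrays limits the precision.

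The members and lists were chosen with earlier results of these data known. Named genes were all members and, per list, direction and comparison, up to 4 genes with the largest difference among those at least 2-fold apart with the 75th-percentile, normexp and quantile settings. A list with none gave its 2 brightest members, and any probe of a named gene that opposed it by 1.5-fold or more was to be given. The alternatives were other scalings (detected probes, quantile, loess with span 0.4, spike-in), normexp with offset 50 (limma 3.58.1, R 4.3.3), filters, averaged probes, kept outliers, the authors' table and 1.5-fold or 3-fold thresholds. Other steps used Python 3.11.15, numpy 2.4.6, pandas 2.3.3 and matplotlib 3.10.9. The counting was tested on simulated data.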

Additional observations from a re-analysis of the deposited data

How the results depend on the processing

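No paired analysis was possible because each group had 1 array. Alternatives not named below kept the members' counts within 1.5 times of those reported and their medians within 0.21, the median SE of a difference. For 1 uM against untreated, requiring both arrays above background left 1 member lower, since Rarres2 and Cebpa were not well above background at 1 uM. Spike-in scaling gave 1 member higher (Lpl) and a median of 0.34, and no filter gave 1 higher (Cd36, dim on all arrays). At 0.01 uM the median was 0.11 with quantile normalization and 0.63 with spike-in scaling. For 1 uM against 0.01 uM the median was -0.39 with quantile normalization, -0.41 with loess and -0.31 with spike-in scaling, the count lower was 1 with both arrays required and 6 at 1.5-fold, where 17.3% of all genes were lower.

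The further lists were recomputed at 1 uM as alternatives chosen after seeing the data. With spike-in scaling, regulators that favour adipogenesis had 1 lower and 2 higher, and genes that hold it back had 3 higher. Among the latter, Id2, Zfp521, Hes1 and Klf2 stayed at least 2-fold lower. Late genes had 0 lower and 3 higher, and partners 0 lower and 7 higher. Of all genes, 25% were higher and 1.41% lower. Without a filter, higher counts were 2, 1, 1 and 2 in that order, and 3 partners were lower. Regulators that favour adipogenesis had 0 higher with normexp and 2 lower with probes averaged. Late genes had 1 higher with quantile, loess and averaged probes, and partners 0 higher with both arrays required.

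The share of 2-fold genes that were higher was 60.8% at 0.01 uM. It was 48.3% with the 75th percentile of detected probes, 72.3% with quantile, 50% with loess and 92.8% with spike-in scaling. Between 1 uM and 0.01 uM it was 44.6%, and 57.6% with detected probes and 79.2% with spike-in scaling. The cause of these differences was not tested. Signal near background limits Cebpa, Cd36 and Adipoq, and saturation limits Cebpd and Plin2.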

Other observations

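Within the list of late fat cell genes, values at 1 uM short of 2-fold ran in both directions. Fasn, fatty acid synthase, was at 5.05 untreated, 5.13 at 0.01 uM and 5.94 at 1 uM, a difference of 0.90, and Acly, which supplies its acetyl-CoA, differed by 0.74. Scd1 and Dgat1 differed by -0.05 and 0.02, and Gpd1 by 0.51. Dgat2, which makes triglyceride, was at 4.11, 4.22 and 3.26, a difference of -0.85, and the lipases Mgll and Pnpla2 differed by -0.58 and -0.48. Spike-in scaling moves the median of all genes from -0.04 to 0.64, a shift about as large as most of these values. The genes were picked after their values were seen.

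At 0.01 uM the genes of the partner list farthest from untreated were Lmf1, which folds lipoprotein lipase, at 0.83, and Ccrl2, a receptor that binds chemerin, at 0.74. Both were picked by these values. Ccrl2 was at -1.33 untreated, -0.58 at 0.01 uM and -1.43 at 1 uM. Its difference from untreated at 1 uM was -0.11, where the measured difference of Rarres2 was -3.78. A link between Ccrl2 and Rarres2 was not tested. Lmf1 was also higher at 1 uM, by 0.79.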
